A study of Mus musculus with 6 samples.

Results

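A set of 10 genes of the Notch pathway was examined in stromal cells of the mouse colon after chemical colitis: the 4 receptors Notch1, Notch2, Notch3 and Notch4, the 4 ligands Jag1, Jag2, Dll1 and Dll4, and the 2 target genes Hes1 and Hey1. They were taken by name from the expression tables, and all 10 were found among the 24346 genes listed. RNA-seq was done on 6 libraries, each from a different mouse. Levels are given as FPKM (sequenced fragments scaled to transcript length in kilobases and to 1000000 mapped fragments), and different genes are set side by side in this unit. The longest coding transcripts of the members run from 1468 bases (Hes1) to 10500 (Notch2). Whether long and short transcripts were recovered alike was not tested. The control group held 3 mice of genotype Il10ra flox/flox without cre (libraries 8, 9 and 43), here called floxed, and the other group held 3 mice of genotype Pdgfra cre; Il10ra flox/flox (libraries 13, 23 and 25), here called Pdgfra-cre. Il10ra encodes the receptor chain that binds interleukin-10, and cre under Pdgfra, a gene of fibroblasts, is meant to delete it in those cells. Every mouse was 12 weeks old and had been given 1% dextran sulfate sodium (DSS), which injures the colonic epithelium, so neither group shows the uninjured colon. Live cells were sorted from the whole colon as Podoplanin-positive and negative for CD45, CD31 and EpCAM, which mark leukocytes, endothelium and epithelium, and the sort did not use PDGFRA itself. No source used here gives the strain, the sex or the length of DSS treatment.

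Notch signaling passes between touching cells. A ligand of the Jagged or Delta-like family on the sending cell binds a Notch receptor on its neighbour, proteases of the ADAM family and then gamma-secretase cut the receptor, and the freed intracellular part enters the nucleus and joins the DNA-binding protein RBPJ to switch on genes such as Hes1 and Hey1, which encode transcriptional repressors. In the gut the pathway is best known for keeping epithelial progenitors from becoming secretory cells, and in vessels for arterial fate and for the mural cells around endothelium. Hes1 is also induced by signals other than Notch.

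The libraries held an estimated 7480000 to 8770000 fragments, and 11188 to 11358 genes per library reached 1 FPKM. The targeted gene Il10ra was listed at 0 in 5 of 6 libraries, including 2 of the 3 floxed ones, and was 0.418 FPKM in floxed library 43, so its values cannot check the genotype (exact two-sided permutation p = 1). Most of the 7 fibroblast markers were high in every library, though Thy1 was only 3.69 to 10.4 FPKM. Pdgfra was 178 to 200 FPKM in floxed and 120 to 174 in Pdgfra-cre libraries, so it was lower in every Pdgfra-cre library. Dcn separated the other way, at 8626 to 9149 in floxed and 9697 to 11261 in Pdgfra-cre libraries. The other markers on the list overlapped between groups. Groups were separate for 16.4% of all genes tested. Library 23 stood apart, with a mean correlation with the other libraries of 0.950 against 0.960 to 0.970, and its summed leukocyte markers were 189 FPKM against 13.1 to 33.0 elsewhere. Most of that sum was S100a8 (94.7 FPKM) and S100a9 (63.9), genes of neutrophils. Lyz2 (28.8 FPKM) and Ptprc (1.04) were also highest in library 23. Csf1r, a macrophage gene, was lowest there (0.0564), and Cd79a lay within the range of the other libraries. Itgam and Cd3e were listed at 0 in library 23, as they were in some of the others.

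The stretches before the start sites of some members are shown first, since HES and HEY proteins, the products of the target genes, bind short DNA boxes. The boxes searched were the E-box CACGTG, its relative with the letters CACGCG, and the N-box, here in the form CACGAG. RefSeq (GRCm38.p6) start sites were matched for 8 of the 10 members, giving 9 windows of 250 bases before the start because Dll1 has 2 starts. The target genes Hes1 and Hey1 are not among them, so the counts below cover receptors and ligands only. Each sequence runs 5′ to 3′ on the strand of its gene, bases in exons of protein-coding transcripts are left out, and capitals mark a box on either strand. Notch2 is shown as the main receptor, Jag1 and Dll1 (its farther start) as the main ligand members, and Notch4 as a receptor that was barely expressed. Notch1, Notch3, Dll4, Jag2 and the nearer start of Dll1 are not shown.
Notch2 (chr3:98013288-98013537, plus strand): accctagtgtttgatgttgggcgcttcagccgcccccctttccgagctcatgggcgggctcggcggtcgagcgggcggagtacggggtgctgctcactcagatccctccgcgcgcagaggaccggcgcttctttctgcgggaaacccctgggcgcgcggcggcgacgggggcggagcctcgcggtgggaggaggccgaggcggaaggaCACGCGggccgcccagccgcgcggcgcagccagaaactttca
Jag1 (chr2:137116645-137116770, minus strand): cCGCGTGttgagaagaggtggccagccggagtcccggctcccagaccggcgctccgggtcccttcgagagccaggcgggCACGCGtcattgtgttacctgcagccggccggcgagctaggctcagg
Dll1 (chr17:15376933-15377182, minus strand): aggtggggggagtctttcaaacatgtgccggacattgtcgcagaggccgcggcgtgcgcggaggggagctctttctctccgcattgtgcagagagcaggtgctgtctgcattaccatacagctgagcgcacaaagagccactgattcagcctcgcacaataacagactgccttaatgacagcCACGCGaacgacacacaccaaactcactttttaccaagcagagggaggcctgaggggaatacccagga
Notch4 (chr17:34564045-34564267, plus strand): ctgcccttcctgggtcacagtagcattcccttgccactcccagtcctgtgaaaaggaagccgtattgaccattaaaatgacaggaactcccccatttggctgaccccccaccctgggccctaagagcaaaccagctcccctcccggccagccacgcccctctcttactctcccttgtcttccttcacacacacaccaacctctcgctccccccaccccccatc
Of the 9 windows 5 held at least 1 such box, against 17.2% of 32851 windows of the same length in the table and 29.4% of the 12716 windows with a GC content of at least 56%, the lowest among the members. Jag1 held 2 boxes, Notch2, Notch3 and Dll4 held 1 each, and Dll1 held 1 at its farther start. The windows of Notch1, Notch4, Jag2 and the nearer start of Dll1 held none, so members with and without a box included both expressed and barely expressed genes. The RBPJ core TGGGAA, searched on both strands, was in none of these 9 receptor and ligand windows, against 21.6% of all windows and 18.5% of those with a GC content of at least 56%. The last letters of CACGTG are the first of the core, so a stretch may count for both. The Notch2 window was 72% G and C with 34 CpG dinucleotides, and the Notch4 window 58.4% with 4, against a median of 52.4% and 6 over all windows. The highest values of the members were in the window of Jag2, a gene listed at 0 in all libraries (87.2% with 54). The window of the barely expressed Notch3 was 68.8% with 17. A relation of composition to expression was not tested. A match of letters is a description of the sequence and no evidence of binding, and a window without one says nothing of sites elsewhere.

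Hes1 was far above every other member. Notch2 was the highest of the receptor members, and Dll1 and Jag1 were the highest of the ligand members. Over the 6 libraries the mean level was 457 FPKM for Hes1, 4.77 for Hey1, 4.62 for Dll1, 4.28 for Notch2, 2.89 for Jag1 and 0.788 for Notch1. Notch4 (0.135), Notch3 (0.0869) and Dll4 (0.0635) were near 0, and Jag2 was listed at 0 in all libraries. Hes1 ranked at position 164 of all genes, and Hey1, Dll1, Notch2 and Jag1 lay between percentile 44.8 and 52.9 of the 17017 genes above 0. Hes1 exceeded Hey1 in 6 of 6 libraries with ranges that did not overlap. The order of Hey1, Dll1 and Notch2 was not settled by these libraries: their ranges overlapped, Hey1 was above Dll1 in 4 of 6 libraries and Dll1 above Notch2 in 3 of 6. Notch2 was above Jag1 in 6 of 6 libraries although the ranges overlapped, Jag1 was above Notch1 in 6 of 6 and Notch1 above Notch4 in 6 of 6, both without overlap. Among the lowest, Notch4 was above Notch3 in 5 of 6 libraries, and the ranges of Notch4, Notch3, Dll4 and Jag2 overlapped.

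**Figure D1:**
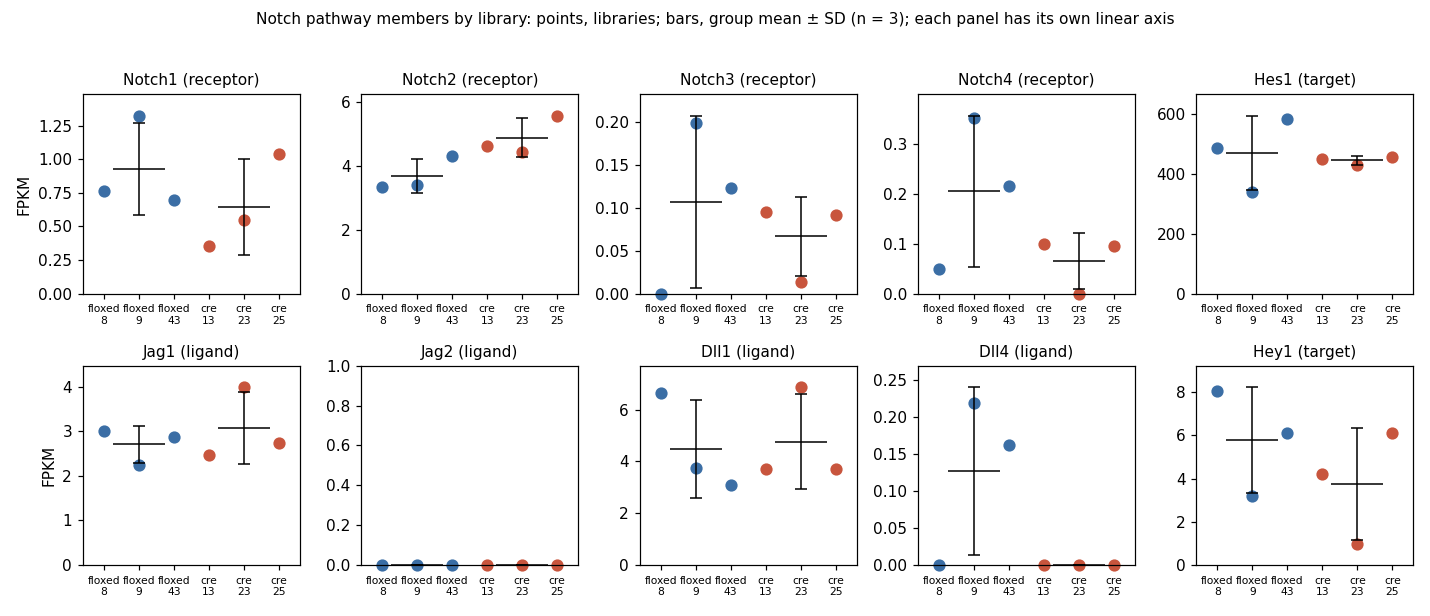
FPKM of each member in each library, with floxed libraries in blue, Pdgfra-cre libraries in red, and the group mean ± SD (n = 3) in black, each panel on its own linear axis. The groups are separate for Notch2, where the 3 Pdgfra-cre libraries (4.42 to 5.57) lie above the 3 floxed ones (3.34 to 4.30), and share part of their range or are tied at 0 in the other panels.

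Notch2 was the main receptor of these cells and the only member whose groups did not overlap, which was so for 16.4% of all genes tested. The gene lies on chromosome 3, 98013527 to 98150361 (mm10), and its longest coding transcript has 34 exons. It was 3.34, 3.41 and 4.30 FPKM in floxed libraries 8, 9 and 43 and 4.63, 4.42 and 5.57 in Pdgfra-cre libraries 13, 23 and 25. Every Pdgfra-cre library was above every floxed one, though library 23 exceeded floxed library 43 only narrowly. The group means were 3.68 ± 0.533 and 4.87 ± 0.613 (SD, n = 3 each), a ratio of 1.32. The log2 difference of 0.33 ± 0.21 (SE; 95% interval -0.14 to 0.80) did not pass (limma, adjusted p = 0.639, unadjusted p = 0.150). By the depth estimate 268 to 513 reads lay behind each value, so counting error alone was smaller than the spread between mice. Its exons overlap those of Gm42820 on the same strand, so reads of that gene may be counted in it.

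Notch1 was the second receptor, at a level near the lower limit of what was tested. It was 0.767, 1.32 and 0.694 FPKM in floxed libraries 8, 9 and 43 and 0.352, 0.546 and 1.04 in libraries 13, 23 and 25. The groups overlapped, with the highest value in floxed library 9 and the lowest in Pdgfra-cre library 13. Only 2 libraries reached 1 FPKM, so Notch1 was compared by an exact two-sided permutation test on FPKM (means 0.929 ± 0.345 and 0.647 ± 0.356, SD, n = 3 each; p = 0.4), for which 0.1 is the smallest p possible. Exons of Notch1 overlap those of the antisense genes Gm13568 and 0610009E02Rik, and libraries of this kind do not keep the strand, so reads of these genes cannot be told apart.

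Notch3, a receptor of mural cells, and Notch4, a receptor of endothelium, rested on few reads. Notch3 was 0, 0.199 and 0.123 FPKM in the floxed libraries and 0.0953, 0.0134 and 0.0912 in the Pdgfra-cre ones, at most about 11.9 reads (exact permutation p = 0.5). Notch4 was 0.0491, 0.351 and 0.215 FPKM in the floxed libraries and 0.0988, 0 and 0.0945 in the Pdgfra-cre ones, at most about 17.3 reads (exact permutation p = 0.3). Both were highest in floxed library 9, as Notch1 was, and exons of Notch3 overlap those of the antisense gene Gm17276. Of the 8 blood endothelial markers only Tek reached the level tested, Cdh5 was listed at 0 in all libraries, and their sum was 29.0 to 36.1 FPKM in floxed and 33.3 to 43.8 in Pdgfra-cre libraries, of which Tek made 27.1 to 41.5. Of the 7 pericyte markers 6 reached the level tested, and their sum was 45.7 to 62.8 FPKM in floxed and 31.8 to 42.1 in Pdgfra-cre libraries. Kcnj8 made the most of that difference (means of 30.4 and 17.8 FPKM). Abcc9 (12.0 and 8.54), Mcam (5.07 and 2.35) and Cspg4 (2.31 and 1.90) were also lower in Pdgfra-cre. Rgs5 (3.41 and 3.72), Ndufa4l2 (1.75 and 1.84) and Higd1b (0 and 0.126) were not. The part of these cells in the receptor values was not tested, and in bulk RNA fewer cells of a type and less RNA per cell cannot be told apart.

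As a share of the summed FPKM of the 4 receptors, Notch2 made 80.4%, 64.5% and 80.6% in floxed libraries 8, 9 and 43 and 89.5%, 88.8% and 81.9% in libraries 13, 23 and 25. The share was lowest in floxed library 9, where Notch1 made 25.1% and Notch4 6.64%. The summed level of the receptors itself overlapped between groups, at 4.16 to 5.33 FPKM in floxed and 4.98 to 6.80 in Pdgfra-cre libraries. These shares were not tested, and a higher share of 1 receptor means a lower share of the others by construction.

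**Figure D2:**
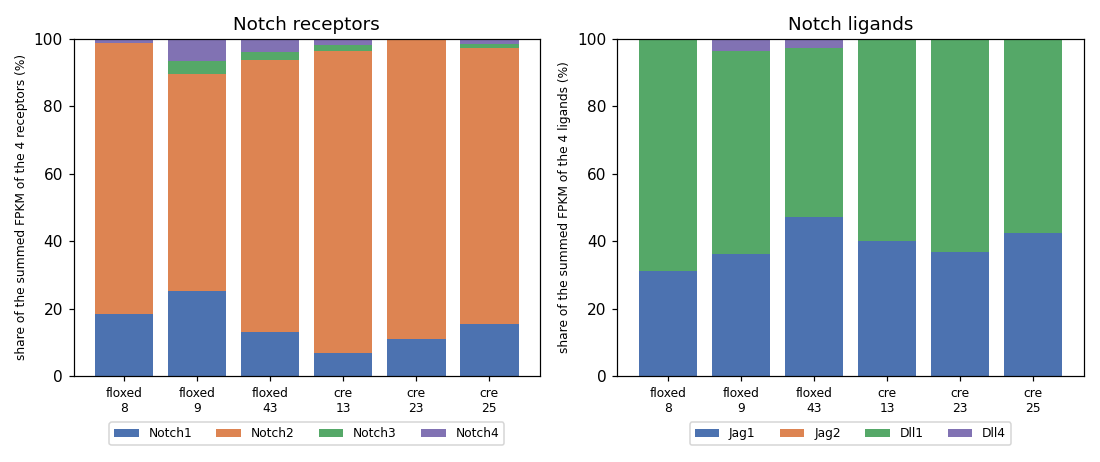
Share (%) of each receptor (left) and each ligand (right) in the summed FPKM of its 4 family members, by library. Notch2 makes 64.5% to 89.5% of the receptor sum, and Dll1 and Jag1 together make nearly all of the ligand sum, with Dll4 visible in floxed libraries 9 and 43.

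Dll1 and Jag1 were the most abundant of the 4 ligand members, and neither differed between genotypes beyond the spread of its libraries. Dll1 (chromosome 17, 15367354 to 15376872), a Delta-like ligand, was 6.62, 3.74 and 3.08 FPKM in floxed libraries 8, 9 and 43 and 3.69, 6.87 and 3.72 in libraries 13, 23 and 25. It was high in 1 library of each group, floxed 8 and Pdgfra-cre 23, and between 3.08 and 3.74 in the other 4. The group means were 4.48 ± 1.88 and 4.76 ± 1.82 (SD, n = 3 each), with a log2 difference of 0.080 ± 0.31 (SE; 95% interval -0.61 to 0.77; limma, adjusted p = 0.955). Without floxed library 43 or Pdgfra-cre library 23 the difference turned to -0.11 or -0.17, and with array weights to -0.18, so its direction was not fixed. Exons of Dll1 overlap those of the antisense gene A930024N18Rik.

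Jag1 (chromosome 2, 137081456 to 137116644), a Jagged ligand, was 3.01, 2.24 and 2.88 FPKM in the floxed libraries and 2.47, 3.99 and 2.75 in libraries 13, 23 and 25. Library 23 was again the highest, and the other 5 lay between 2.24 and 3.01. The log2 difference was 0.12 ± 0.24 (SE; 95% interval -0.42 to 0.66; limma, adjusted p = 0.905), and without library 23 it was -0.034. Dll1 made 50.3% to 68.8% and Jag1 31.2% to 47.0% of the summed FPKM of the 4 ligands. That sum was 6.12 to 9.63 FPKM in floxed and 6.16 to 10.9 in Pdgfra-cre libraries, highest in library 23.

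Dll4, a ligand of endothelial tip cells and arteries, was 0.218 and 0.163 FPKM in floxed libraries 9 and 43, about 6.1 and 5.1 reads, and listed at 0 in floxed library 8 and in all Pdgfra-cre libraries (exact permutation p = 0.4). For this gene 3 reads correspond to between 0.0913 and 0.107 FPKM, so the listing at 0 in 4 libraries and the values in the other 2 are only a few reads apart. Jag2 was listed at 0 throughout, where 3 reads would have been 0.0670 to 0.0786 FPKM. Lymphatic endothelial markers, whose cells carry Podoplanin, summed to 1.40 to 3.41 FPKM in floxed and 1.03 to 1.95 in Pdgfra-cre libraries, with 1 of 4 at the level tested and none at 0 in every library.

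Hes1 was among the most abundant transcripts in both genotypes. The gene lies on chromosome 16, 30064384 to 30067796. It was 487, 337 and 584 FPKM in floxed libraries 8, 9 and 43 and 449, 428 and 454 in libraries 13, 23 and 25. All 3 Pdgfra-cre values lay inside the floxed range, and the floxed libraries were the more spread (469 ± 124 against 444 ± 13.6, SD, n = 3 each). The log2 difference was -0.044 ± 0.18 (SE; 95% interval -0.45 to 0.36; limma, adjusted p = 0.960). It was -0.26 without floxed library 9 and 0.13 without floxed library 43. Hes1 made 98.4% to 99.8% of the summed FPKM of the 2 targets.

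Hey1 was the member with the widest range among those tested. The gene lies on chromosome 3, 8663359 to 8667256, and encodes a repressor related to HES1. It was 8.05, 3.19 and 6.12 FPKM in floxed libraries 8, 9 and 43 and 4.21, 0.982 and 6.09 in libraries 13, 23 and 25, an 8.20-fold range. The groups overlapped, and library 23 was the lowest by a wide margin, with about 20.6 reads against 57.8 to 165 in the others. The means were 5.79 ± 2.45 and 3.76 ± 2.59 (SD, n = 3 each), and the log2 difference of -0.63 ± 0.46 (SE; 95% interval -1.67 to 0.42) did not pass (limma, adjusted p = 0.699). Without library 23 it was -0.089, and without Pdgfra-cre library 25 it was -1.01. The 6 smooth muscle markers, all at the level tested and none at 0, summed to 131 FPKM in library 23, 298 and 330 in libraries 13 and 25, and 547 to 567 in floxed libraries. Within the Pdgfra-cre libraries these sums had the order of Hey1, but not across groups. Floxed library 9 had a sum of 547 with Hey1 at 3.19, and library 25 had 330 with Hey1 at 6.09. The 6 markers of subepithelial fibroblasts with high PDGFRA, also all tested, summed to 143 FPKM in library 23, 202 to 232 in the other Pdgfra-cre libraries and 299 to 427 in floxed ones. F3 made most of each sum (112 to 267 FPKM) and was nearly equal in library 13 (182) and floxed library 8 (183). Foxl1 overlapped, with 2.27 FPKM in library 25 against 0.835 in floxed library 8. Bmp5, Bmp7, Nrg1 and Sox6 were lower in every Pdgfra-cre library. The sum of the 6 mesothelial markers, of which 5 were tested and none was at 0 throughout, moved the other way. It was 78.2 FPKM in library 23, 14.2 and 28.0 in libraries 25 and 13, and 3.09 to 12.9 in floxed ones. Msln made the most of it in library 23 (28.1 FPKM). Msln, Upk3b and Lrrn4 were higher in every Pdgfra-cre library. Wt1 (2.47 in library 23, 3.85 in floxed library 9), Upk1b and Krt19 overlapped. Krt19 is also on the epithelial list, which summed to 28.6 FPKM in library 23 and 0.620 to 13.7 in floxed libraries. The part of any of these cell types in the Hey1 values was not tested.

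**Figure D3:**
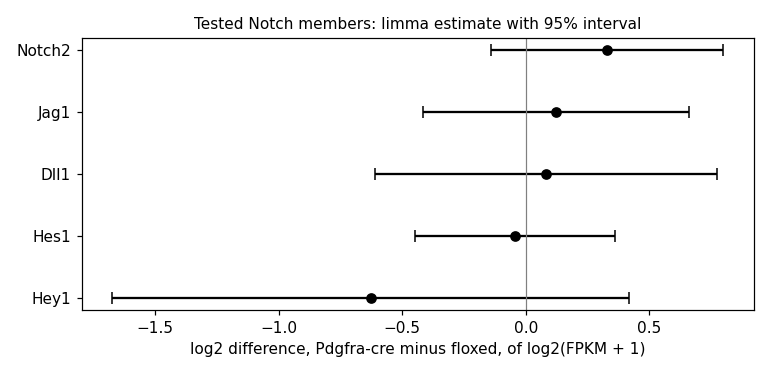
Log2 difference, Pdgfra-cre minus floxed, of the 5 members that were tested, with the 95% interval from limma. All 5 intervals include 0, and they run from -0.14 to 0.80 for Notch2 and from -1.67 to 0.42 for Hey1.

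Of the 10 members 5 had at least 1 FPKM in at least 3 libraries and were tested, and 5 (Notch1, Notch3, Notch4, Jag2 and Dll4) were not. By limma 0 of the 5 passed an adjusted p of 0.05, as did 0% of all 11429 genes tested, and 0 of 5 had an unadjusted p under 0.05, against 11.0% of all genes. Groups were separate in 1 of the 5, against 16.4% of all genes (8.07% with Pdgfra-cre higher). Of the 5, 3 had a difference above 0 and 2 below, and the median log2 difference was 0.080, against 0.0012 over all genes. The intervals reach down to -1.67 and up to 0.80 on the log2 scale, so these data do not show that the members stayed at the same level.

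**Figure D4:**
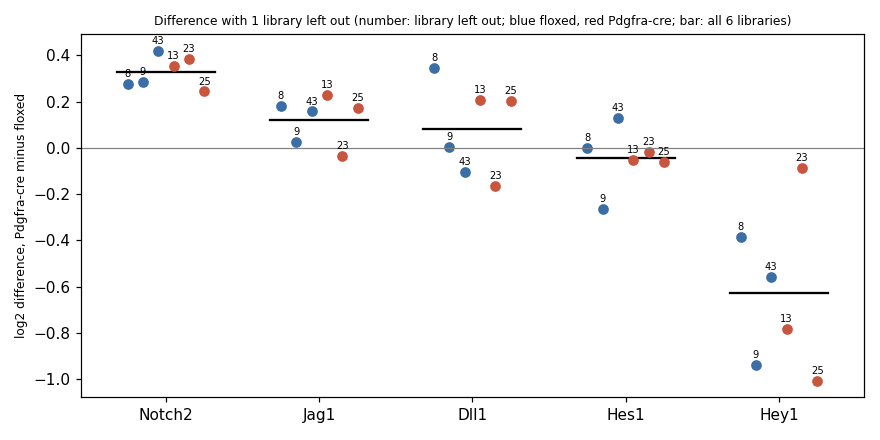
Log2 difference of each tested member with 1 library left out at a time, the number naming the library left out and the bar giving the value with all 6. Notch2 stays between 0.24 and 0.42, while Dll1, Jag1 and Hes1 cross 0 and Hey1 comes to -0.089 without library 23.

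The machinery that makes, cuts and reads the receptors was expressed in these cells, and no gene of it passed the test. A list of 50 other pathway genes was examined by role, of which 35 were tested. By limma 0 passed an adjusted p of 0.05 (0% of all genes), 2 had an unadjusted p under 0.05, both higher in Pdgfra-cre (5.47% of all genes were) and 0 lower (5.49%), and 18 were above 0 and 17 below, with a median log2 difference of 0.017. Groups were separate in 3 of the 35, all higher in Pdgfra-cre (8.07% of all genes) and 0 lower (8.29%).

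Among the enzymes that act on the receptors, 9 of 10 proteases were tested and 6 of them were above 0. Furin, which cuts the receptor precursor on its way to the surface, was 2.64, 1.85 and 2.77 FPKM in floxed libraries 8, 9 and 43 and 3.24, 4.61 and 6.46 in libraries 13, 23 and 25. Every Pdgfra-cre library was above every floxed one, and the log2 difference was 0.73 with an adjusted p of 0.344 (limma). Ncstn, which encodes the gamma-secretase subunit nicastrin, had the highest mean over the 6 libraries among the protease genes, at 94.8 ± 5.28 FPKM in floxed and 88.9 ± 11.7 in Pdgfra-cre libraries (SD, n = 3 each). Psenen, which encodes another subunit, was close behind and above Ncstn in libraries 13 and 23, with 80.2 ± 2.81 and 103 ± 20.6 FPKM (SD, n = 3 each). Of the glycosyltransferases that modify the receptors 3 of 5 were tested, all slightly below 0 (-0.016 to -0.12), and Poglut1, which adds glucose to the receptor, was the most abundant at 27.9 to 33.1 FPKM. The fringe gene Rfng was 17.9 to 24.4 FPKM, while Lfng and Mfng reached at most 0.304 and 0.0725.

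In the nuclear complex 6 of 7 genes were tested. Snw1, a coactivator, was the most abundant at 34.8 to 39.4 FPKM. Rbpj, named here for its role, was 11.7, 15.2 and 14.2 FPKM in the floxed libraries and 12.0, 9.75 and 13.1 in the Pdgfra-cre ones, which overlapped (log2 difference -0.22, limma, adjusted p = 0.731). Maml2, a coactivator that binds RBPJ with cleaved Notch, was 2.39 to 2.72 FPKM in floxed and 2.78 to 3.09 in Pdgfra-cre libraries, separate but close, with a log2 difference of 0.15 and an adjusted p of 0.862 (limma). Among corepressors 5 of 6 were tested, 3 of them above 0, and Hdac1 was the most abundant (80.3 to 97.5 FPKM).

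Of the genes for receptor turnover all 7 were tested and 5 were below 0. Numbl, a relative of the Notch inhibitor Numb, was 13.1, 10.1 and 9.86 FPKM in floxed libraries 8, 9 and 43 and 15.4, 16.2 and 16.5 in libraries 13, 23 and 25. The groups did not overlap, and the Pdgfra-cre libraries lay close together (11.0 ± 1.82 and 16.0 ± 0.526, SD, n = 3 each). Its log2 difference of 0.51 had the lowest adjusted p of the list, 0.283 (limma). Numb itself, with the highest mean of the role though below Dtx4 in 2 of 6 libraries, was 16.0 to 21.7 FPKM in floxed and 16.0 to 22.7 in Pdgfra-cre libraries.

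Of the 7 genes listed as other targets only Hes6 and Heyl were tested. The list was fixed by role, and whether Hes6 or the others respond to Notch in these cells was not tested. The level of Hes6 is therefore not read as Notch activity. Hes6 was 12.1 to 16.4 FPKM and Heyl 2.2 to 4.64, with log2 differences of 0.017 and 0.29, while Hes5, Hey2, Hes7, Nrarp and Dtx1 were all at most 0.933 FPKM. Nrarp, a feedback inhibitor that is a direct target of Notch, reached at most 0.355 FPKM. Of the ligand endocytosis genes Mib2 was the most abundant (8.50 to 12.4 FPKM), and Mib1, the ubiquitin ligase that ligands need to signal, was 0.955 to 3.15. Of other ligand-like genes only Dner was tested, at 18.6 FPKM in floxed library 43 and 5.68 to 7.97 in the other 5. Dner was above Jag1 in every library and above Dll1 in all but floxed library 8.

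**Figure D5:**
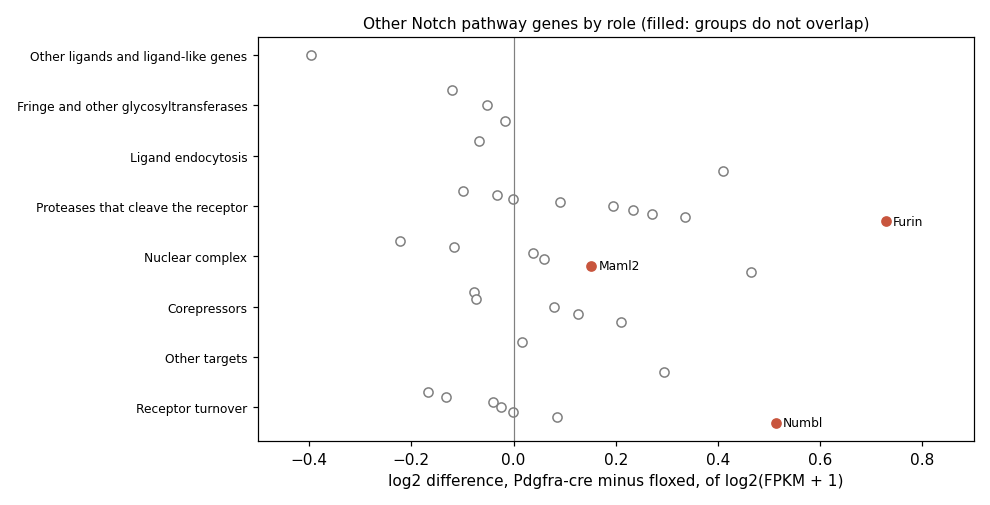
Log2 difference, Pdgfra-cre minus floxed, of the 35 other pathway genes tested, by role, with filled points where the groups do not overlap. The 3 filled points (Furin, Numbl and Maml2) are all above 0, and most others lie within 0.3 of it.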

How the data were processed

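The deposited values were gene-level FPKM made by the authors, 1 table per library, with no counts. Per the labels' protocols, total RNA was turned into full-length cDNA and libraries were prepared with a tagmentation kit, and per the submitters' processing notes TopHat2 2.1.1, Bowtie2 2.2.8, SAMtools 0.1.18 and Cuffdiff 2.2.1 were used with mm10. No source used here gives the annotation or options. With R 4.3.3 and limma 3.58.1, log2(FPKM + 1) of the 11429 genes with at least 1 FPKM in at least 3 libraries was compared between genotypes (variance trend, Benjamini-Hochberg adjustment over all of them, threshold 0.05). Log2 differences on this scale understate changes of low genes. The procedure was tested on simulated data made from more abundant genes, a range that held Hes1 but none of the other tested members. Members below the filter were compared on FPKM by exact permutation, where 3 against 3 cannot go below 0.1.

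Members and lists were chosen with earlier results of these data known. Named pathway genes were the one with the highest mean of each role and those whose groups did not overlap; the others named (Rbpj, Psenen, Dtx4, Mib1, the fringe genes and the other targets) were added for their roles or levels after values were seen. Of the pathway list, 1 gene is not reported here. Positions and transcript lengths are from GENCODE M21, and start-site windows from RefSeq. Depth was estimated from the lowest frequent value of genes with 1 transcript of over 1000 bases, sought between 0.03 and 0.7 FPKM per kilobase, which put 1 read per kilobase at 0.114 to 0.134 FPKM. Estimated reads use the longest coding transcript and cover counting error only. None of 12 housekeeping genes was listed at 0. Alternatives were other pseudocounts (0.1 and 5), no filter, a filter of 5 FPKM, median-of-ratios and quantile scaling, TPM, no trend, a robust prior, array weights and leaving out each library.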

Additional observations from a re-analysis of the deposited data

How the results depend on the processing

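With all 6 libraries and under the 10 alternatives that kept them, limma called 0 genes, and leaving out 1 library gave 0 to 33: 33 without Pdgfra-cre library 25, 3 without Pdgfra-cre library 13 and 2 without floxed library 43. None of these was a member or a gene of the pathway list. Notch2 kept its direction in all 15 alternatives that could test it (0.19 to 0.42) and Hey1 in all 16 (-1.01 to -0.089). Dll1 turned with array weights (-0.18) and ran from -0.17 to 0.34 with 1 library left out, Jag1 from -0.034 to 0.23 and Hes1 from -0.26 to 0.13. No alternative made a member pass (adjusted p 0.425 to 1.00). The median over the tested members, 0.080 with all 6 libraries, was -0.34 under the filter of 5 FPKM, which kept only Hes1 and Hey1, -0.051 with no filter, -0.044 with array weights, -0.034 without Pdgfra-cre library 23 and 0.00089 after rescaling to TPM, so its direction was not fixed. The difference in mean FPKM of Notch3 ran from -0.0942 to 0.00518 with 1 library left out. No paired analysis was possible because the groups share no replicate numbers. Depth limits Notch3, Notch4 and Dll4, with at most about 17.3 reads in a library.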

Other observations

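For the most abundant receptor, ligand and target, the 3 tested genes with a mean of at least 5 FPKM whose log2 levels followed it most closely over the 6 libraries were taken, as a description of points that share libraries and depth. For Notch2 they were Dag1, which encodes dystroglycan (r = 0.984), Reep3 (0.979) and the potassium channel gene Kcnk2 (0.976), of 7880 genes compared. For Dll1 they were Prpf38a (r = 0.995), Cyb561d2 (0.994) and the deubiquitinase gene Usp14 (0.993). For Hes1 they were Dnmbp (r = 0.992), Spag9 (0.983) and the pantothenate kinase gene Pank3 (0.981), of 7879 genes compared. With 6 points and this many genes such values arise readily. Among the members only Hes1 had a mean of at least 5 FPKM, and it was not among the genes listed for Notch2 or Dll1. The other members were left out of the comparison by that limit, so their absence says nothing of whether members follow each other.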
